A study of Homo sapiens with 8 samples.

Results

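Ligands of the bone morphogenetic protein (BMP) family and the secreted antagonists that bind them outside the cell were followed in adipose-derived stem cells (ADSCs) treated with SAHA. The 9 genes are the ligands BMP2, BMP4 and BMP6, the chordin family antagonists CHRD, CHRDL1 and CHRDL2, and the antagonists NOG, GREM1 and FST. They were taken by gene symbol from the 18508 genes of the arrays, and all 9 were measured. The cells were ASC52telo, 1 line of human ADSCs immortalized with telomerase (hTERT), so the arrays stand for 1 line and not for several donors. After 24 h without serum, cells received for 72 h either 1000 nM SAHA (vorinostat, an inhibitor of histone deacetylases) dissolved in ethanol, ethanol alone as the vehicle (EtOH), or no treatment, and all were then kept for 24 h in fresh medium. Clariom S human arrays, which read protein-coding genes with short probes, gave 3 arrays of cells given SAHA, 2 of cells given EtOH and 3 of cells left untreated. A further EtOH array, replicate 2, had been left out by the authors for low intensity.

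BMP ligands are secreted dimers that bring type I and type II receptor kinases together on the cell surface. The type I receptor then phosphorylates SMAD1, SMAD5 and SMAD9, which enter the nucleus with SMAD4 and switch on genes such as the ID family. Noggin, gremlin, follistatin and the proteins of the chordin family hold ligands away from the receptors, and tolloid proteases release ligands again by cutting chordin. In mesenchymal stem cells the balance of ligands and antagonists is known to steer bone, cartilage and fat cell formation.

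Promoter sequences were found in the RefSeq table of build GRCh38.p14 for 6 of the 9 genes, with 9 start sites among them. The 250 bases before the start are printed 5′ to 3′ on the strand of the gene for CHRDL1, the 1 gene of the group that rose with SAHA, and for GREM1 and FST, antagonists with values well above the array medians. Capitals mark the GC box GGGCGG, the letters bound by SP1 and related factors, on either strand (CCGCCC where it lies on the other). The windows are chrX:110795818-110796067 on the minus strand for CHRDL1, chr15:32717754-32718003 on the plus strand for GREM1 and chr5:53480379-53480628 on the plus strand for FST.
CHRDL1: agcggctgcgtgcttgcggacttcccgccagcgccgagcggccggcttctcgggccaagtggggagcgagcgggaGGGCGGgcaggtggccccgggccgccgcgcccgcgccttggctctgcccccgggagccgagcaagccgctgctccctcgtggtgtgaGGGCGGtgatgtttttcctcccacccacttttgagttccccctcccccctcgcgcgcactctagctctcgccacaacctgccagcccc
GREM1: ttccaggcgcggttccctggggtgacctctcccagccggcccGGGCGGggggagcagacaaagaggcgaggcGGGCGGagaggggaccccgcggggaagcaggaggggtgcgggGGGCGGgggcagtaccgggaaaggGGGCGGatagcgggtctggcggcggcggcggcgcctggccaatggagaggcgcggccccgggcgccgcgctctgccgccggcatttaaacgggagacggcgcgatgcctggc
FST: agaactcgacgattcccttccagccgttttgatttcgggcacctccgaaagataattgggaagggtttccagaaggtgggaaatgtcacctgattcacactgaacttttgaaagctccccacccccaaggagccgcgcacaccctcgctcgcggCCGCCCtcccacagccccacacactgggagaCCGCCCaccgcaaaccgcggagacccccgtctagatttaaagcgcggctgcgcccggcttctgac
These letters occurred 2 times in the CHRDL1 window, 4 times in that of GREM1 and 2 times in that of FST. Of the 9 windows of the group 7 held them, against 42.6% of all 35116 windows of this length. The 9 windows came from 6 genes, with more than 1 each for BMP4 and GREM1, so they are not independent. They were not compared with windows of like G and C content. G and C made up 73.2% of the CHRDL1 window, 76.8% of that of GREM1 and 60.0% of that of FST, where the median window had 58.0%. The match describes the letters and not the binding of a factor. GREM1 has a further start site in the table, whose window held no GC box.

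The deposited values are log2 expression, from -0.83 to 9.96, with array medians of 0.26 to 0.28 with SAHA and 0.30 to 0.33 in the controls. Their offset is not known, so changes are read between arrays of 1 gene. Levels of different genes are set side by side only as a rough guide. BMP2, BMP4, CHRDL2 and NOG lay below the array medians on every array, and BMP6 and CHRD lay near them, on either side. Such low values leave little room to show a fall. CHRDL1, GREM1 and FST lay well above the medians. All 7 mesenchymal markers (NT5E, THY1, ENG, CD44, PDGFRB, COL1A1 and VIM) had values between 3.77 and 8.47, while the 4 haematopoietic markers stayed between -0.47 and 0.67 and the 4 epithelial markers between -0.45 and 0.54. Of the 3 chondrocyte markers, COL2A1, a cartilage collagen gene, read 2.65 to 3.84, while COL9A1 and COL10A1 stayed between -0.33 and 0.50. Of the 4 endothelial markers VWF read 0.47 to 1.22, with a log2 fold change of -0.48 with SAHA (adjusted p = 0.094 from limma), and the others stayed between -0.33 and 0.25. The 4 adipocyte markers stayed between -0.44 and 0.23 and the 2 measured osteoblast markers between -0.45 and 0.23. Averaged over its 4 markers, the haematopoietic list lay at -0.05 to 0.06 on the SAHA arrays and at 0.09 to 0.20 on the control arrays. The endothelial list lay at -0.052 to 0.089 and at 0.085 to 0.281, so its ranges overlapped. Those of the mesenchymal, epithelial, adipocyte, osteoblast and chondrocyte lists overlapped too. None of the markers passed the test applied to the 9 genes. The part of these markers in the results was not tested. In every gene the mean over the arrays of replicate 1 equalled those of replicates 2 and 3 within 1e-10, so differences between the replicate numbers had been taken out before deposit. In such bulk samples, fewer cells that express a gene and less RNA per cell cannot be told apart.

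To ask which of these genes SAHA changed, the 3 SAHA arrays were compared with the 5 arrays of EtOH and untreated cells combined. CHRDL1 rose 2.40-fold and was the 1 gene of the 9 that passed. None of the ligands, and neither of the other chordin family genes, passed in either direction. A gene passed, as higher or as lower, where limma, a linear model with moderated variances, gave an adjusted p below 0.05 and the fold reached 1.5. In this comparison 0.438% of all genes were higher and 0.297% were lower, against 1 of 9 and 0 of 9 in the group. The fit had no term for the replicate numbers, although differences between them had been taken out, so its p-values can be too small. With the replicate number as a block, 36 of all genes were higher and 14 lower, against 81 and 55 without it. Of the 9 genes 5 had a positive and 4 a negative log2 fold change, with a median of 0.01, where the median over all genes was -0.03. CHRDL1 was also the 1 gene of the 9 with every SAHA array above every control array, as 4.21% of all genes were, and 0 of the 9 lay wholly below, as 6.25% of all genes did. CHRDL1 is among the genes that the study listed from these same arrays, so its call is not independent evidence.

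**Figure D1:**
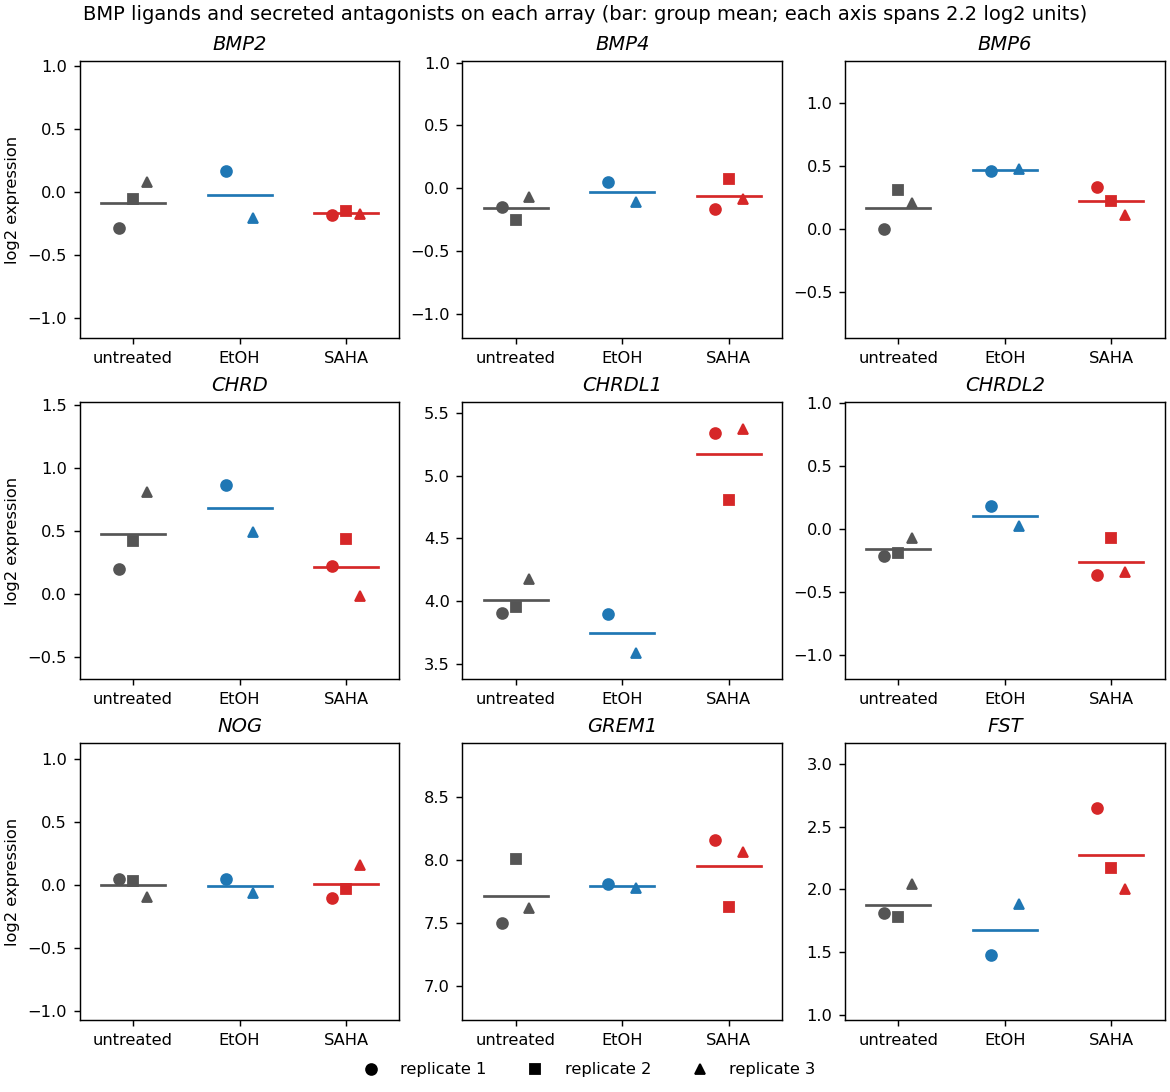
Deposited log2 expression of the 9 BMP ligand and antagonist genes over the 8 arrays. Points are single arrays, with colour for the group (untreated, EtOH or SAHA), shape for the replicate number and bars for the group means, and every panel spans the same number of log2 units. The SAHA points of CHRDL1, from 4.81 to 5.37, lie above all of its control points, and in the other genes SAHA and control points overlap.

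CHRDL1 encodes chordin-like 1 (also known as ventroptin), a secreted protein with cysteine-rich repeats of the chordin type that binds BMP4. Its log2 values were 3.91, 3.96 and 4.18 on the untreated arrays 1, 2 and 3, 3.90 and 3.59 on EtOH arrays 1 and 3, and 5.34, 4.81 and 5.37 on SAHA arrays 1, 2 and 3. The lowest SAHA array, replicate 2, lay above the highest control array, untreated replicate 3, and the controls lay close together. The mean was 5.17 ± 0.32 (SD, n = 3) over the SAHA arrays and 3.91 ± 0.21 (SD, n = 5) over the control arrays. Expressed as a log2 fold change this was 1.27 (standard error, SE, 0.16, 95% interval 0.92 to 1.61, adjusted p = 0.0061 from limma). Within the replicate numbers, SAHA minus the mean of the controls of that number was 1.43, 0.85 and 1.49 for replicates 1, 2 and 3. The difference was thus positive in 3 of 3 replicates and smallest in replicate 2. For replicate 2 the control, here and below, was the untreated array alone, as its EtOH array had been left out. With the replicate number as a block, in which 0.195% of all genes were higher, the log2 fold change was 1.29 (adjusted p = 0.011 from limma). Leaving out any 1 array kept the call (adjusted p from 0.0047 to 0.041, log2 fold change from 1.17 without SAHA replicate 3 to 1.45 without SAHA replicate 2). Leaving out all arrays of replicate number 1 or of replicate number 3 ended the call, at adjusted p of 0.23 and 0.17 with log2 fold changes of 1.18 and 1.15. In these fits 0 of all genes passed in either direction, so the loss is not particular to CHRDL1. The call also ended at an adjusted p of 0.073 by the methods' t-test, the unpaired test of the study's general statistics section, run here gene by gene although the study used limma for the arrays. With the fold threshold inside the test the adjusted p was 0.62.

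**Figure D2:**
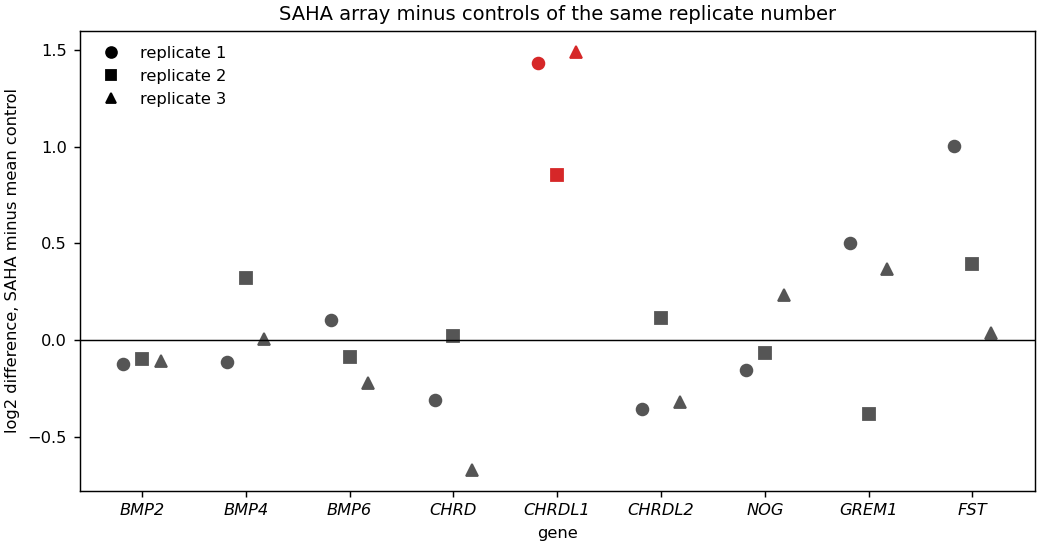
Difference in log2 expression between the SAHA array and the mean of the control arrays of the same replicate number, for each of the 9 genes. Each point is 1 replicate number, and the horizontal line marks no difference. Replicate 2 has no EtOH array, so its control is the untreated array alone. CHRDL1 has its points at 1.43, 0.85 and 1.49, all above 0. FST has 1.0, 0.39 and 0.04, and GREM1 lies on both sides of 0.

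Of the other chordin family genes, CHRD lay near the array medians and CHRDL2 below them on every array. CHRD encodes chordin, the founding member, which binds BMP2, BMP4 and BMP7. Its log2 values were 0.20, 0.42 and 0.81 on the untreated arrays, 0.86 and 0.49 on the EtOH arrays and 0.22, 0.44 and -0.02 on the SAHA arrays. SAHA replicate 3 was lowest, and the other SAHA arrays fell within the range of the untreated ones. For CHRD the log2 fold change was -0.34 (SE 0.16, 95% interval -0.70 to 0.02, adjusted p = 0.35 from limma), with 0.22 ± 0.23 (SD, n = 3) against 0.56 ± 0.28 (SD, n = 5). CHRDL2, which encodes chordin-like 2, an antagonist found in cartilage and bone, read -0.21, -0.19 and -0.08 on the untreated arrays, 0.18 and 0.02 on the EtOH arrays and -0.37, -0.07 and -0.34 on the SAHA arrays. SAHA replicates 1 and 3 were lowest and SAHA replicate 2 lay among the controls. Its log2 fold change was -0.21 (SE 0.12, 95% interval -0.47 to 0.05, adjusted p = 0.44). Within replicates 1, 2 and 3 the differences were -0.31, 0.02 and -0.67 for CHRD and -0.35, 0.11 and -0.32 for CHRDL2. For both genes, replicate 2 thus stood on the other side of 0 from replicates 1 and 3. Its control lacked EtOH, and EtOH against untreated cells was 0.20 for CHRD and 0.26 for CHRDL2. For CHRD, EtOH minus untreated was 0.67 in replicate 1 and -0.31 in replicate 3, so the replicates went opposite ways. For CHRDL2 it was 0.40 and 0.10. The part of the lacking EtOH array in the sign was not tested.

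FST encodes follistatin, which binds activins tightly and several BMPs less so. Its log2 values were 1.81, 1.78 and 2.05 on the untreated arrays, 1.48 and 1.88 on the EtOH arrays and 2.65, 2.17 and 2.0 on the SAHA arrays. SAHA replicate 1 was highest, and SAHA replicate 3 lay just below untreated replicate 3. Its log2 fold change was 0.47 (SE 0.16, 95% interval 0.12 to 0.83), with 2.27 ± 0.33 (SD, n = 3) against 1.80 ± 0.21 (SD, n = 5), and it did not pass at an adjusted p of 0.20 from limma. Together with CHRDL1 it made up the 2 of 9 genes that were higher at an unadjusted p under 0.05, as 5.82% of all genes were. Within replicates the difference was 1.0, 0.39 and 0.04, so that replicate 3 showed almost none. Without SAHA replicate 1 the log2 fold change was 0.29.

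GREM1 encodes gremlin 1, an antagonist of BMP2, BMP4 and BMP7 of the DAN family. It read 7.50, 8.01 and 7.62 on the untreated arrays, 7.81 and 7.78 on the EtOH arrays and 8.16, 7.63 and 8.07 on the SAHA arrays. SAHA replicates 1 and 3 were the highest of all, and SAHA replicate 2 lay at the low end of the controls. A log2 fold change of 0.21 (SE 0.15, 95% interval -0.12 to 0.53, adjusted p = 0.54 from limma) did not pass, and the differences within replicates were 0.50, -0.38 and 0.37. It was 0.11 without SAHA replicate 1 and 0.37 without SAHA replicate 2. NOG encodes noggin, which encloses BMP dimers and blocks both receptor sites. It read 0.05, 0.03 and -0.09 on the untreated arrays, 0.05 and -0.06 on the EtOH arrays and -0.10, -0.03 and 0.16 on the SAHA arrays. SAHA arrays held both the lowest and the highest value, and the log2 fold change of NOG was 0.01 (95% interval -0.20 to 0.22).

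Of the ligand genes, BMP2 and BMP4 lay below the array medians on every array and BMP6 lay near them. In all 3 the groups overlapped. BMP2, which encodes a ligand that drives bone formation, read -0.28, -0.05 and 0.08 on the untreated arrays, 0.16 and -0.21 on the EtOH arrays and -0.18, -0.15 and -0.17 on the SAHA arrays. The SAHA arrays lay closely together inside the range of the controls, and the differences within replicates 1, 2 and 3 were -0.12, -0.10 and -0.11. For BMP2 the log2 fold change was -0.11 (SE 0.11, 95% interval -0.36 to 0.15, adjusted p = 0.70 from limma). BMP4, which encodes the closest relative of BMP2, read -0.15, -0.25 and -0.07 on the untreated arrays, 0.05 and -0.11 on the EtOH arrays and -0.16, 0.07 and -0.08 on the SAHA arrays. Its values overlapped throughout, with a log2 fold change of 0.05 (95% interval -0.17 to 0.27, adjusted p = 0.86). BMP6, which encodes a ligand of the branch that also holds BMP5 and BMP7, read -0.01, 0.30 and 0.20 on the untreated arrays, 0.46 and 0.47 on the EtOH arrays and 0.33, 0.22 and 0.11 on the SAHA arrays. Both EtOH arrays were above all others, and SAHA lay among the untreated arrays apart from replicate 1. Its log2 fold change was -0.06 (95% interval -0.34 to 0.21, adjusted p = 0.85). In all 3 ligands the 95% interval stayed within a 1.5-fold change in either direction. Their values lay near or below the array medians, where an array has little room to show a fall.

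SAHA was also set against each control group in 1 fit of all 3 groups. These comparisons share the SAHA arrays, and are given side by side. Against EtOH, where 0.0864% of all genes were higher and 0.0162% were lower, CHRDL1 was higher and 0 of the other genes passed. Its log2 fold change was 1.43 (SE 0.19, 95% interval 1.0 to 1.85, adjusted p = 0.039 from limma), a fold of 2.69. Against untreated cells, where 0.454% of all genes were higher and 0.335% were lower, CHRDL1 was again the 1 gene that passed, at 1.16 (SE 0.17, 95% interval 0.78 to 1.54, adjusted p = 0.023), a fold of 2.23. Both calls depended on which arrays entered the fit. Against EtOH the adjusted p rose to 0.053, 0.056 and 0.059 without untreated replicate 1, 2 or 3. Over all genes 10, 14 and 3 were still higher in these fits and 3, 5 and 2 lower. The adjusted p of CHRDL1 rose to 0.12 without SAHA replicate 1 and 0.12 without SAHA replicate 3. Over all genes 0 passed without SAHA replicate 1, and 2 were higher and 1 lower without SAHA replicate 3, so the loss is not particular to CHRDL1. Without EtOH replicate 1 or 3 only 1 EtOH array was left, and the log2 fold changes were 1.58 and 1.27. Against untreated cells the adjusted p rose to 0.070, 0.092 and 0.051 without untreated replicate 1, 2 or 3, to 0.070 without SAHA replicate 1 and to 0.079 without SAHA replicate 3. In these fits, in the same order, 32, 21, 25, 28 and 25 of all genes were still higher. Lower were 15, 9, 10, 12 and 11, so other genes kept their calls where CHRDL1 did not. The estimates of CHRDL1 stayed between 1.27 and 1.61 against EtOH and between 1.06 and 1.34 against untreated cells.

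**Figure D3:**
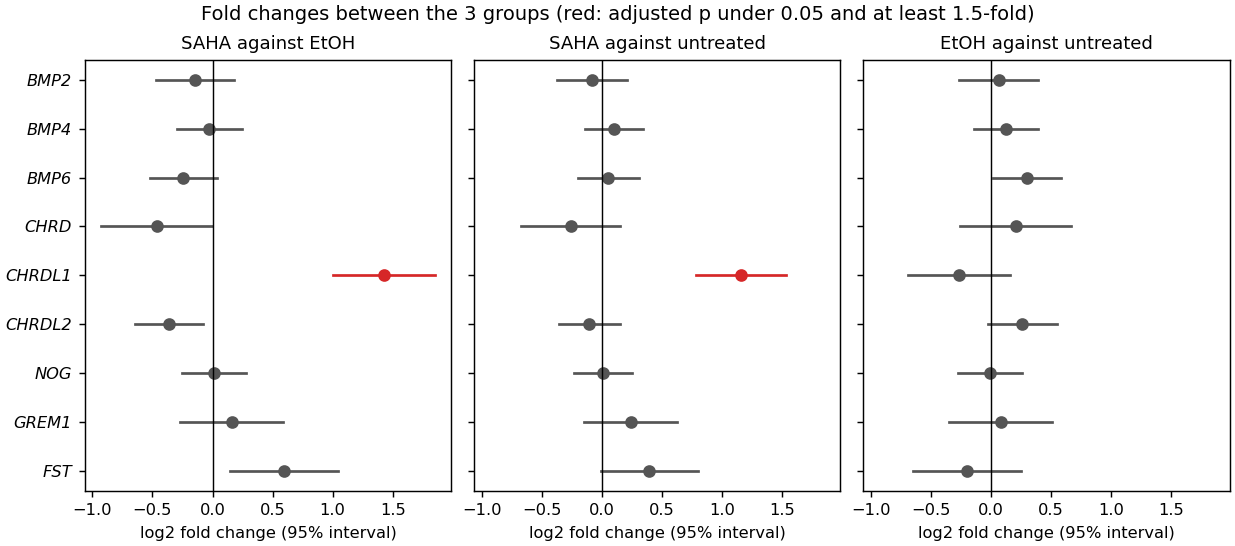
Log2 fold change of the 9 genes in the 3 comparisons between SAHA, EtOH and untreated cells. Points are estimates, lines are 95% intervals from limma and the vertical line marks no change. CHRDL1, drawn in red at 1.43 and 1.16, is the 1 gene of the 9 with intervals above 0 in both comparisons that include SAHA, and its interval for EtOH against untreated cells spans 0.

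Against EtOH, FST had a log2 fold change of 0.59 (adjusted p = 0.27), CHRDL2 one of -0.37 (adjusted p = 0.28) and CHRD one of -0.46 (adjusted p = 0.38), and none of them passed in limma. With CHRDL1 these were 4 of the 9 genes at an unadjusted p under 0.05, as were 12.9% of all genes. With the replicate block in limma, CHRD and CHRDL2 no longer were, at unadjusted p of 0.065 and 0.059. FST still was, at 0.022. Against untreated cells the values were 0.39 for FST, -0.10 for CHRDL2 and -0.26 for CHRD. The vehicle was compared with untreated cells to see what EtOH did without SAHA. Here 0 of the 9 genes passed and 0% of all genes were higher and 0% were lower in limma, with 1 of the 9 and 1804 of all genes at an unadjusted p under 0.05. That gene was BMP6, at 0.30 (SE 0.13, 95% interval 0.02 to 0.58, adjusted p = 0.50). With the replicate block its interval spanned 0 (0.33, 95% interval -0.09 to 0.76, unadjusted p = 0.11 from limma). EtOH minus untreated was 0.46 in replicate 1 and 0.27 in replicate 3 for BMP6. CHRDL1 had a log2 fold change of -0.27 (95% interval -0.69 to 0.16) in this comparison, with an EtOH minus untreated difference of -0.59 in replicate 3 and almost none in replicate 1.

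The genes whose values followed those of CHRDL1 most closely over the 8 arrays were RAB3B, which encodes a small GTPase of secretory vesicles, SLC29A4, which encodes a transporter of monoamines, and CEMIP2, which encodes a cell surface hyaluronidase. Pearson's r with CHRDL1 was 0.992, 0.990 and 0.984. RAB3B was higher with SAHA, with a log2 fold change of 1.42, and SLC29A4 and CEMIP2, at 0.33 and 0.24, did not pass. These are descriptions, since all 4 genes share the same arrays, the groups and the removal of differences between replicate numbers.

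The rest of the pathway was read from 7 lists with 63 measured genes of 64, of which 2 were higher with SAHA and 0 were lower against the combined controls. The called genes were SMAD6 and ID3. An unadjusted p below 0.05 was found for 13 of the 63 (20.6%), against 15.4% of all genes. A positive log2 fold change was found for 39 of the 63 (61.9%), with a median of 0.06, against 42.4% of all genes. Among the 11 other BMP and GDF ligand genes 0 passed, with log2 fold changes from -0.09 to 0.24. The largest changes were those of BMP8B (0.24) and GDF7 (0.17), which encode ligands with known roles in germ cells and in the nervous system. Of the 6 genes of activin subunits and related ligands that follistatin binds, 0 passed. INHBA, which encodes the subunit of activin A, had a log2 fold change of 0.70 (SE 0.21, adjusted p = 0.16 from limma), and INHBE, which encodes another activin subunit, one of -0.17. Of the 12 measured genes of other secreted antagonists and modulators 0 passed, with FSTL3, which encodes a follistatin-like protein, at -0.43 and SOST, which encodes sclerostin, at -0.28. Of the 3 tolloid protease genes 0 passed, with TLL2 at -0.24 and BMP1, the procollagen C-proteinase gene, at 0.20.

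**Figure D4:**
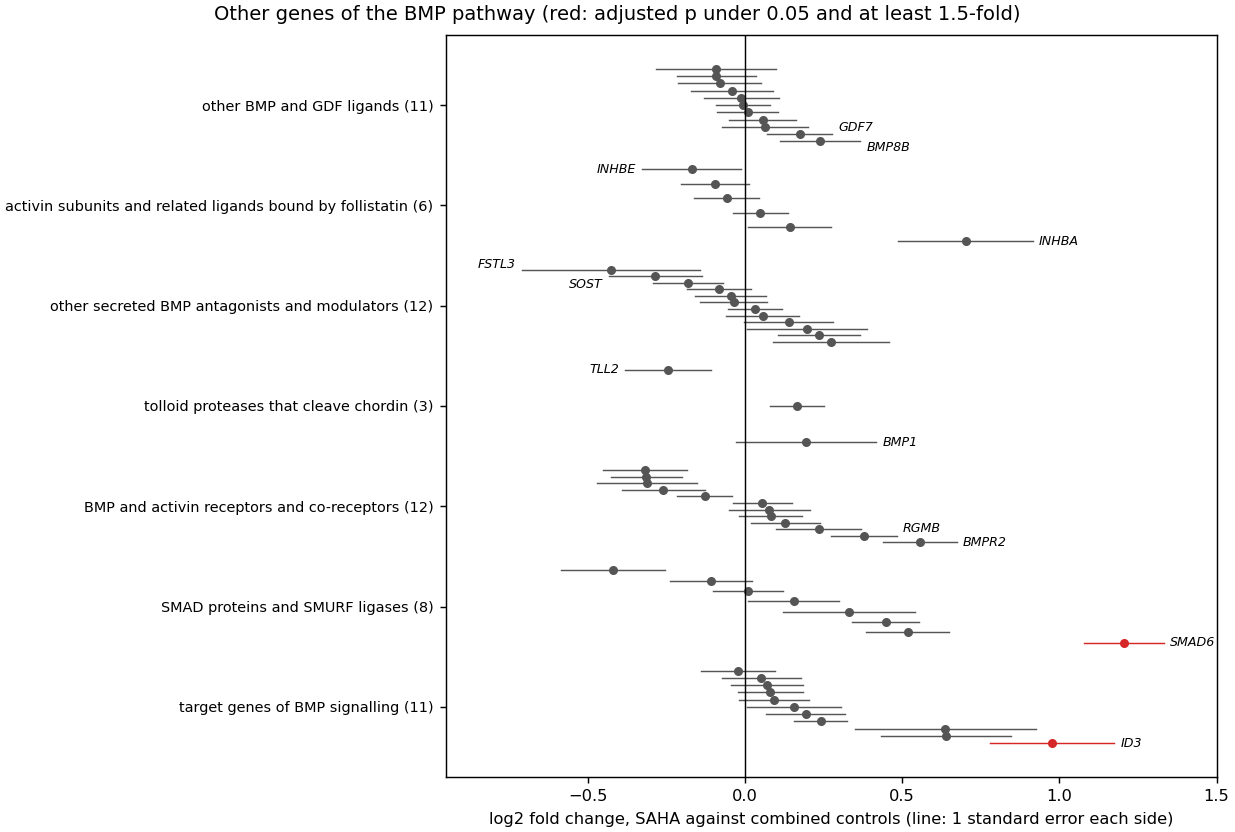
Log2 fold change of the 63 other genes of the BMP pathway for SAHA against EtOH and untreated cells combined, in 7 lists. Points are estimates, lines run 1 standard error to each side and labels name the called genes and, in lists without one, the genes with the largest change. SMAD6 (1.20) and ID3 (0.98) passed and are drawn in red.

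On the receiving side, 0 of the 12 receptor and co-receptor genes passed. BMPR2, which encodes the type II BMP receptor, had a log2 fold change of 0.56 (SE 0.12), short of the threshold (adjusted p = 0.057 from limma). It passed with each array centred on its median (0.047) and without SAHA replicate 2 (0.027), and had an adjusted p of 0.24 with the replicate block. RGMB, a co-receptor gene, had a log2 fold change of 0.38 (adjusted p = 0.13). In 2 of the 12 genes, BMPR2 and RGMB, every SAHA array lay above every control array, as in 4.21% of all genes. In 2, BAMBI (-0.31) and ACVR1 (-0.13), every SAHA array lay below, as in 6.25% of all genes. SMAD6, which encodes an inhibitory SMAD that BMP signalling induces as a feedback, rose within the list of 8 SMAD and SMURF genes. Its log2 values were 2.27, 1.84 and 2.15 on the untreated arrays, 2.28 and 2.04 on the EtOH arrays and 3.15, 3.29 and 3.51 on the SAHA arrays, which all lay above the controls. SMAD6 had a log2 fold change of 1.20 (SE 0.13, adjusted p = 0.0023 from limma), and with the replicate block its adjusted p was 0.0075. The call ended by the methods' t-test (adjusted p = 0.058), with the fold threshold inside the test (0.49), and without all arrays of replicate number 1 (0.14) or 3 (0.17). Without replicate number 1 or 3, 0 of all genes passed. Like CHRDL1, SMAD6 is among the genes that the study listed from these arrays.

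ID3, which encodes an inhibitor of bHLH transcription factors and is a direct BMP target, was the 1 of 11 target genes that passed, where 0.438% of all genes were higher. Of the 11, 10 had a positive log2 fold change, with a median of 0.16, against 42.4% of all genes. Within replicates 1, 2 and 3 the differences were -0.13, 1.07 and 1.13 for ID1 and 0.59, -0.25 and 1.39 for ID2. MSX1, MSX2 and DLX5 lay below the array medians on every array. The log2 values of ID3 were 2.79, 3.14 and 2.75 on the untreated arrays, 3.44 and 2.97 on the EtOH arrays and 3.93, 3.63 and 4.43 on the SAHA arrays, so the groups did not overlap. ID3 had a log2 fold change of 0.98 (SE 0.20, adjusted p = 0.047 from limma). With the replicate block it did not pass (adjusted p = 0.12), nor did it without untreated replicate 1, 2 or 3, EtOH replicate 3, SAHA replicate 1 or SAHA replicate 3 (adjusted p from 0.080 to 0.16). Without all arrays of replicate number 1, 2 or 3 it did not pass either, at adjusted p of 0.25, 0.10 and 0.27. Over all genes 0 passed without replicate number 1 or 3, and 30 were higher and 9 lower without replicate number 2.

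**Figure D5:**
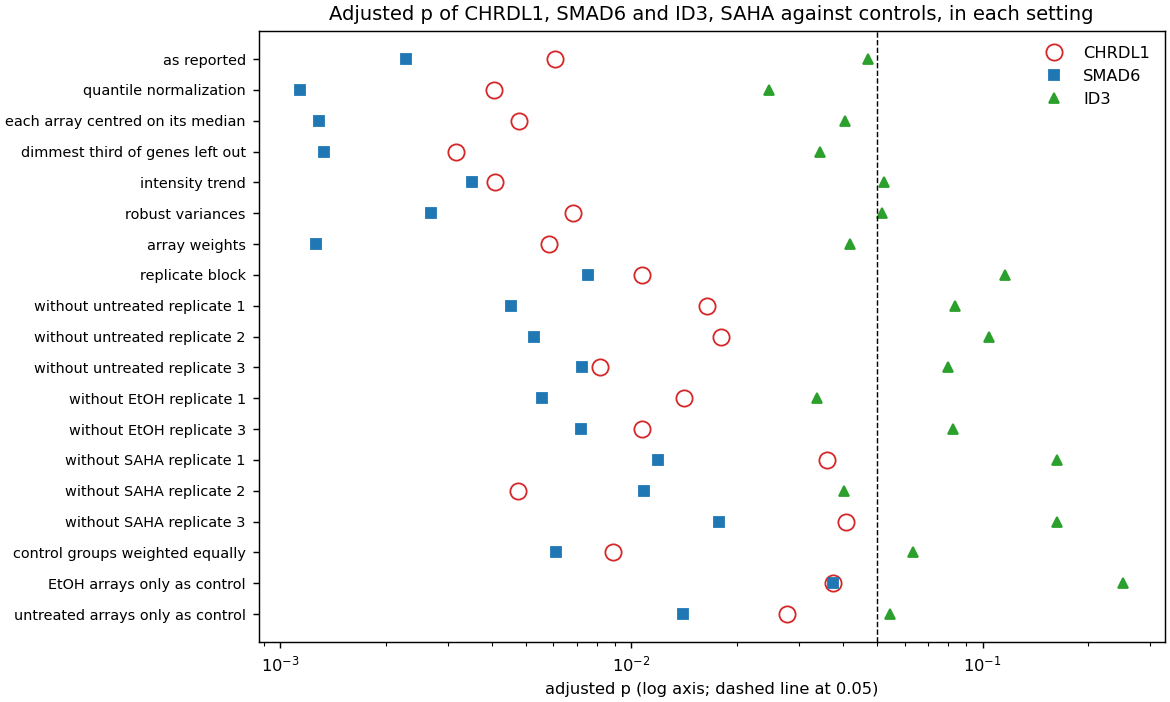
Adjusted p of CHRDL1, SMAD6 and ID3 for SAHA against the controls as reported and in 18 other settings. Points are the adjusted p from limma on a log axis and the dashed line marks 0.05. CHRDL1 and SMAD6 lie below the line in 18 of 18 settings and ID3 in 6 of 18. Not drawn are a fold threshold placed inside the test and the methods' t-test, which each ended all 3 calls. Fits without all arrays of a replicate number are not drawn either, and without replicate number 1 or 3 all 3 calls ended.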

How the data were processed

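RNA of ASC52telo ADSCs was read on Clariom S human arrays. According to their methods, the authors normalized the arrays by RMA in the oligo package, averaged the fold changes of probe sets of a gene, and dropped 1 EtOH array because its intensity was low. Each gene has 1 deposited log2 value per array, and how probe sets were reduced to it is not stated. A step that equalized the replicate numbers is not named there. Linear models were fitted with limma 3.58.1 in R 4.3.3, and no normalization or filter was added. The main model, following those methods, combined EtOH and untreated arrays as control, and a fit of 3 groups gave the pairwise comparisons. The main model had 6 residual degrees of freedom, and 4 with the replicate block, which allows for the equalized replicate numbers. Adjusted p-values are by Benjamini-Hochberg over all 18508 genes, and errors of means are SDs between arrays. The number of arrays limits precision. In the labels, replicate 1 is marked p6, replicate 2 p10 and replicate 3 p16, without a key. Correlations between arrays cannot show pairing because the replicate numbers were equalized. The labels call the arrays biological replicates of 1 cell line. Alternatives were other normalizations, filters, variance priors, array weights, the replicate block, each array left out in turn, other controls and other tests. Leaving out all arrays of a replicate number was chosen after seeing the data. Named genes were all members, in each pathway list the called genes or else the 2 with the largest change, and the 3 genes most like a called member. Members and lists were chosen with earlier results of these data known. FSTL1 was not found under its symbol. The fits were tested on simulated data.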

Additional observations from a re-analysis of the deposited data

Results flagged for a closer look

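Among the 5 control arrays, INHBE lay at a log2 value of 0.67 on untreated replicate 3 against a mean of 0.13 on the other control arrays, a gap too large for a group of 5 by Dixon's test. It was the 1 gene set apart in this way among the 72 genes of the group and its pathway lists, where chance sets apart about 5% of such groups, and 0 of the 9 ligand and antagonist genes were.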

How the results depend on the processing

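Of the 9 genes 1 was called against the combined controls, and 1 remained called with the replicate block, with quantile normalization, median centring, the dimmest genes left out (12338 left), a filter that drops BMP2, BMP4, CHRDL2 and NOG and keeps 5 of the 9, an intensity trend, robust variances, array weights, either control group alone or weighted equally, and with any single array left out. The count was 0 with the fold threshold inside the test and 0 by the methods' t-test, and 0 without all arrays of replicate number 1 or 3. Over all genes the fold threshold inside the test called 3 higher and 1 lower, and the methods' t-test 5 higher and 4 lower. Without all arrays of replicate number 1 or 3, 0 of all genes passed in either direction. Against EtOH the count was 0 with array weights and 0 to 1 with 1 array left out, and against untreated cells 0 to 1 with 1 array left out. Among the other pathway genes 2 were called. There were 3 with each array centred on its median (BMPR2 added) and with array weights (SMURF2 added), and 1 with an intensity trend, robust variances, the replicate block, equal weights, EtOH arrays only, untreated arrays only or without replicate number 2. There were 0 with the fold threshold inside the test, by the methods' t-test and without replicate number 1 or 3, and 1 to 3 with 1 array left out (3, with BMPR2, without SAHA replicate 2). Of CHRDL1, SMAD6 and ID3, the replicate block changed the call of ID3.

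Some changes that did not pass changed sign. NOG ranged from -0.063 to 0.067 with 1 array left out and was -0.11 without replicate number 3. BMP4 ranged from -0.016 to 0.10 with 1 array left out, and was -0.026 with EtOH arrays only and -0.052 without replicate number 2. BMP6 was 0.055 with untreated arrays only and 0.024 without replicate number 3. Their 95% intervals spanned 0 in the reported fit, and the cause was not tested.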
